A study of Drosophila melanogaster with 3 samples.

Results

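The annotation of the Drosophila melanogaster genome holds 260 genes with a symbol that starts with mir- on the main chromosomes (Ensembl release 115), and occupancy of the protein CG2712 around all 260 is described here. They were chosen by symbol and position. They make up 260 of the 17796 genes compared. Genes within 10000 bp of each other were joined, which gave 198 loci: 171 of a single gene and 27 of 2 or more genes, with 12 genes in the largest. The hairpins, the folded precursors from which microRNAs are cut, had a median length of 92 bp (50 to 174), and 209 of the 260 lay inside another gene, called the host here.

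Chromatin immunoprecipitation with sequencing was done on whole embryos of mixed sex, 0 to 16 h old, from a transgenic line in which GFP was joined to the C-terminal end of CG2712. CG2712 encodes a protein with C2H2 zinc fingers, a fold that often contacts DNA. Antibody against GFP was used, so peaks mark DNA found with the tagged protein, averaged over all tissues and ages of the collection. The 3 biological replicates form a single group with no other condition, with 1 control file that was used to call the peaks of all lists. The lists of single replicates and a pooled list, called on all 3 jointly, have 30000 peaks each. A shorter list of 9789 peaks, the strongest of the pooled list, was deposited as past a threshold of the irreproducible discovery rate (IDR), which asks whether peaks rank alike in replicates. The depth of sequencing is unknown, and no expression was measured, so tissue and stage could not be checked by marker genes.

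MicroRNAs are short RNAs that pair with messenger RNAs through bases 2 to 8, the seed, and lower their translation and stability. Most are transcribed by RNA polymerase II as long primary transcripts, from which the enzyme Drosha cuts the hairpin and Dicer the mature arms, named 5p and 3p. A mirtron instead is an intron that forms the hairpin once spliced. The promoter that drives a microRNA can therefore lie near the hairpin, far upstream at the start of a long noncoding RNA, or at the start of a coding host gene. In flies, microRNAs are known for roles in growth (bantam, mir-8), in cell death (bantam, mir-14, the mir-2 family), in sensory organs (mir-9a, mir-279, mir-263a, annotated here as mir-bft) and in the timing of metamorphosis (the let-7 complex).

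Mature sequences are shown for 7 of the 10 loci with the strongest IDR peaks and for 2 genes that share a seed, mir-276a and mir-276b. They come from the RefSeq annotation and genome of the dm6 assembly, in which all 260 genes had at least 1 mature arm. Each is written 5′ to 3′, and capitals mark the seed.
mir-279 3p: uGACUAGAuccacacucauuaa
mir-996 3p: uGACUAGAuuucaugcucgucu
mir-13a 3p: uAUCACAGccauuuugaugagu
mir-13b-1 3p: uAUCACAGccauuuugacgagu
mir-2c 3p: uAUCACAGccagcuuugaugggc
mir-92a 3p: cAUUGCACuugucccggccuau
mir-92b 3p: aAUUGCACuagucccggccugc
mir-276a 3p: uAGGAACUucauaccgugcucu
mir-276b 3p: uAGGAACUuaauaccgugcucu
mir-ban 3p: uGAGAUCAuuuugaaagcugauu
mir-282 5p: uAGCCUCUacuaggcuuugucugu
mir-375 3p: uUUGUUCGuuuggcuuaaguua
mir-9377 3p: cUUGAUGGggagaaggagagg

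The seed groups fell on few loci. The seed GACUAGA of mir-279 and mir-996 is shared with mir-286, so that 2 of its 3 genes had an IDR summit (the base of highest signal in a peak) within 2000 bp. The seed AUCACAG of the mir-2 family, known in flies for repressing cell death genes, was found in 14 genes at 7 loci, and 5 genes at 3 loci had a summit. All 6 genes with the seed AUUGCAC (mir-92a, mir-92b and mir-310 to mir-313) had one, and they stand at 2 loci. Both genes with the seed AGGAACU, mir-276a and mir-276b, had one as well. Over all microRNA genes the share was 28.5%, and over other gene starts 41.6%. Genes of a family often lie in 1 locus and then share peaks, so these counts are not over independent places. The groups described all hold at least 1 gene with an IDR summit. Seed groups with none are not described, so these groups do not stand for all seed groups.

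The next sequences reach 50 bases to either side of the summit (plus strand of dm6) for a pair of strong peaks at starts of noncoding microRNA hosts and for a pair of weaker peaks that held GGTCACAC, a core of a motif known from fly promoters as motif 1. Capitals mark matches to the motifs searched. The windows are chr3R:29214387-29214487 (mir-279), chr3L:3250177-3250277 (mir-282), chr3R:31219721-31219821 (mir-4949) and chrX:15319399-15319499 (mir-4957).
mir-279, rank 51: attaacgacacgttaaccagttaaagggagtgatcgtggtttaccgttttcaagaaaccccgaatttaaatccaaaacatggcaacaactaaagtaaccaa
mir-282, rank 350: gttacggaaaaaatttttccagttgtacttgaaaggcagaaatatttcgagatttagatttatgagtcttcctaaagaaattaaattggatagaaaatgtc
mir-4949, rank 4696: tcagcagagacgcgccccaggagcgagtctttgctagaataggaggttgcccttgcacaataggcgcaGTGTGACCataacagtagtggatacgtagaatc
mir-4957, rank 6212: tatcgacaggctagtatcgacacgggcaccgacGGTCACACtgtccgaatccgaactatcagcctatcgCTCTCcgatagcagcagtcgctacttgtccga

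Exact matches within 50 bp of a summit, on either strand, were few among the 89 IDR peaks that lay within 2000 bp of a microRNA gene. GGTCACAC was found at 5 of the 89 (5.62%), against 1.71% of all 9789 IDR peaks. GAGAG, bound by the GAGA factor, was at 8 (8.99%), against 8.88% of all IDR peaks. The DNA replication-related element TATCGATA was at 2 (2.25%), against 2.57%, and CAGGTAG, bound by the early activator Zelda, at 1 (1.12%), against 0.347%. None of the 4 was found at the 6 strongest of these summits, which include those of mir-279 and mir-282 above. A missing match says only that these letters were not in the window. The window near mir-4957 held a match to GAGAG as well as GGTCACAC. Its summit was 30 bp from a start of Top1, and the summit shown near mir-4949 was 141 bp from a start of its host ATPsynC. Those with GGTCACAC near mir-4974 and mir-9379 were 55 bp from a start of CG8671 and 29 bp from a start of Echs1. The other was near mir-308, where IDR summits lay 14, 446 and 1557 bp from a start of RpS23. The share of GGTCACAC among all IDR summits near starts was not counted. The shares of motif matches were not tested.

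CG2712 peaks of the IDR list lay near a smaller share of microRNA genes than of other gene starts, and near a larger share than of all bases. An IDR summit lay within 2000 bp of 74 of 260 microRNA genes, 28.5% (exact 95% interval 23.1 to 34.4), and of 58 of 198 loci, 29.3% (23.1 to 36.2). The share was 41.6% for the starts of the 17536 other genes, 39.5% for the 752 other genes of at most 200 bp, and 20.9% for all bases of the main chromosomes. Intervals cover counting error only, and genes of 1 locus can share a peak.

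**Figure D1:**
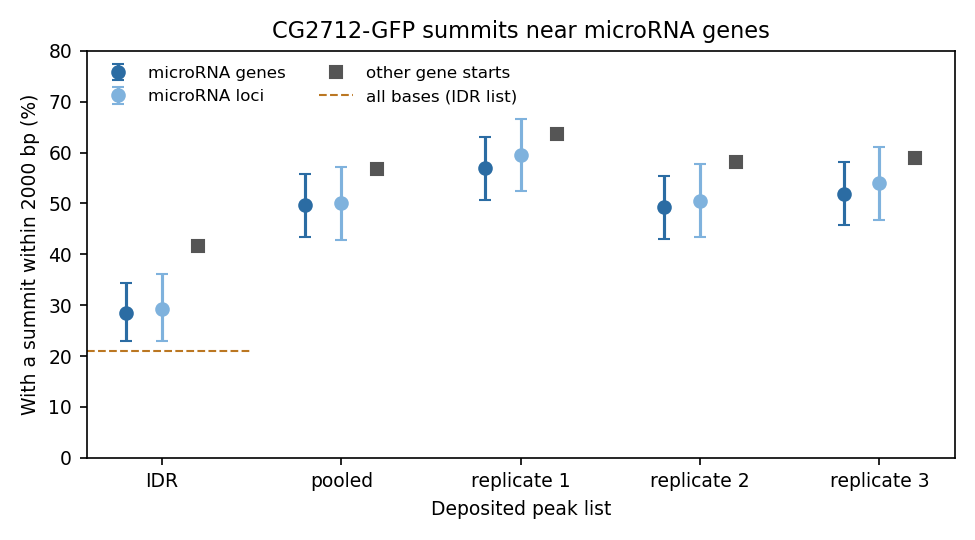
Share (%) of the 260 microRNA genes and 198 microRNA loci with a summit within 2000 bp in each deposited peak list, with exact 95% intervals, beside the share of starts of other genes (squares) and, for the IDR list, of all bases (dashed line). In each list the points for microRNA genes and loci sit below the square for other gene starts, by the most in the IDR list (28.5% and 29.3%, against 41.6%).

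Each replicate showed a smaller share of microRNA genes and loci than of other gene starts. In replicate 1, 148 genes and 118 loci (59.6%) had a summit, against 63.6% of other gene starts. In replicate 2, 128 genes and 100 loci (50.5%) did, against 58.2%, and in replicate 3, 135 genes and 107 loci (54.0%), against 58.9%. The mean over replicates was 54.7% ± 4.58 of loci and 60.2% ± 2.94 of other gene starts (SD, n = 3). The difference was −4.005, −7.66 and −4.89 percentage points in replicates 1, 2 and 3, a mean of −5.52 ± 1.90 (SD, n = 3). It was below 0 in 3 of 3 replicates, with p = 0.25 by a two-sided exact sign-flip permutation test, the smallest p that 3 replicates allow. The pooled list gave 129 genes and 99 loci, against 56.8% of other gene starts. With only the 9789 strongest peaks of each replicate, the means were 27.6% ± 2.04 of loci and 41.9% ± 0.788 of other gene starts (SD, n = 3).

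Closeness to a start of another gene went with the share. With such a start within 2000 bp, 51 of 135 microRNA genes (37.8%) and 44 of 110 loci (40%) had an IDR summit, against 36.2% of bases that have such a start. With none, 23 of 125 genes (18.4%) and 14 of 88 loci (15.9%) did, against 12.1% of bases with none. In both classes the intervals for the microRNA genes (29.6 to 46.5 and 12.0 to 26.3) include the share of bases. Over the replicates the shares of loci were 68.8% ± 3.19 with a start and 37.1% ± 6.46 without one (SD, n = 3).

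Each microRNA gene was put in 1 host class, and where a coding and a noncoding gene on its strand both contain it, it was classed by the coding one. So classed, microRNA genes of noncoding hosts on the same strand most often had a summit. In the IDR list 17 of 46 such genes (37.0%) had one, and over the replicates 73.9% ± 9.96 did (SD, n = 3). Counting every microRNA gene inside a noncoding gene on its strand gave 21 of 51 (41.2%), with mir-281-1, mir-281-2, mir-92b, mir-987 and mir-iab-8 added. Genes with no host followed with 17 of 51 (33.3%; replicate mean 47.1% ± 3.40). Introns of coding hosts had 26 of 100 (26%; 52.7% ± 3.06), and exons of coding hosts 8 of 36 (22.2%; 48.1% ± 3.21). MicroRNA genes on the opposite strand of their host had 6 of 27 (22.2%; 33.3% ± 3.70). The 34 genes whose ends match an intron within 3 bases, as those of mirtrons do, had 5 (14.7%; 42.2% ± 4.49). The exact IDR intervals of all these classes overlap (23.2 to 52.5 for noncoding hosts and 4.95 to 31.1 for mirtron ends). The order of the classes was not tested and differs between the IDR list and the replicate means.

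By locus, 52 of 171 loci inside a host (30.4%) and 6 of 27 outside (22.2%) had an IDR summit. Over replicates 1, 2 and 3 the share of hosted loci was higher than that of loci outside by 8.97, 15.6 and 2.53 points, a mean of 9.03 ± 6.53 (SD, n = 3). The two-sided exact sign-flip permutation test gave p = 0.25, again the smallest possible. Counting only coding hosts turned the difference to −12.5 points (exact p = 0.25), since loci in noncoding hosts then count as outside. Loci of 2 or more genes had a summit in 12 of 27 cases (44.4%) and single genes in 46 of 171 (26.9%), with replicate means of 64.2% ± 5.66 and 53.2% ± 4.68 (SD, n = 3). Loci of several genes also cover more bases.

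Across chromosomes, 11 of 56 microRNA genes on 2L, 15 of 55 on 2R, 9 of 31 on 3L, 19 of 58 on 3R, 1 of 2 on 4 and 19 of 58 on X had an IDR summit. The exact intervals of all arms overlap. Over all chromosomes the shares were 28.5% of microRNA genes and 41.6% of other gene starts. Shares of other gene starts were not counted by chromosome, so these counts are not set against the density of peaks on each.

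The strongest peak near a microRNA gene stood at the start of the transcript that carries mir-279 and mir-996, which act in fly sensory neurons and other tissues. The pair lies at 3R, 29215585 to 29217280, inside the noncoding gene lncRNA:CR31044, which RefSeq names as their primary transcript. The summit was 125 bp from the start of this transcript and 1148 bp upstream of the mir-279 hairpin, with signal 5175 (the authors' enrichment value) and rank 51 of the IDR list. Peaks that overlap it had ranks 92, 47 and 42 in replicates 1, 2 and 3. It is within the strongest 100 peaks of all 3 replicates. A second, weaker peak (rank 5304) lay 926 bp downstream of mir-996. Signal sizes were not compared between replicates, since how the signal is scaled is not known, and ranks are given instead.

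The next was inside Tis11, which encodes an RNA-binding protein that destabilises messenger RNAs. The mir-9377 hairpin (X, 12665217 to 12665268) lies in an intron on the same strand, and the summit lay 1357 bp downstream of it with signal 4039, rank 95 in the IDR list and ranks 122, 87 and 114 in the replicates. Another peak (signal 1686, rank 646) lay 363 bp downstream. Both summits were over 5000 bp from the nearest start, that of Tis11 (6091 and 5097 bp).

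mir-282 (3L, 3251022 to 3251118) had its strongest summit 795 bp upstream of the hairpin and 367 bp from a start of its noncoding host lncRNA:CR43626. It had signal 2312, IDR rank 350 and ranks 383, 343 and 369 in the replicates, a narrow spread. The mir-4968 hairpin (3L, 11552539 to 11552693) lies in an intron of Mob2, which encodes an activator of NDR kinases. Its strongest summit was 1858 bp upstream with signal 2273, IDR rank 361 and replicate ranks 483, 338 and 326. That summit was 1439 bp from the nearest Mob2 start. A weaker summit (rank 2727) lay 402 bp downstream of the hairpin, 975 bp from a Mob2 start. Another (rank 6499) lay 488 bp upstream, 69 bp from a Mob2 start.

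The bantam gene (mir-ban, 3L, 642208 to 642288), whose microRNA drives growth and blocks cell death, had IDR peaks at several places. One lay 1434 bp upstream of the hairpin with signal 1563, IDR rank 736 and replicate ranks 628, 795 and 856. Another lay 345 bp downstream with signal 803.2 and IDR rank 2078. A further summit, 8 bp from a start of the long host lncRNA:CR43334, is described with the noncoding hosts.

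The cluster of mir-13b-1, mir-13a and mir-2c (3R, 15417408 to 15417845), of the mir-2 family, had a peak 1102 bp upstream of mir-2c. Its signal was 1497, its IDR rank 790 and its replicate ranks 895, 764 and 755, and it lay 1427 bp from the nearest start of the primary transcript lncRNA:CR45911. mir-92a and mir-92b (3R, 25646506 to 25651497) lie in jigr1. A summit 410 bp downstream of mir-92a and 236 bp from a start of jigr1 had signal 1491, IDR rank 795 and replicate ranks 658, 963 and 734. A pair of weaker summits further downstream (ranks 5587 and 4973) were 34 and 62 bp from starts of jigr1, and mir-92b had a peak of its own (rank 6508) 87 bp downstream. These starts lie between the 2 microRNAs, so that peaks at them cannot be assigned to the microRNAs or to the host.

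mir-375 (2L, 857542 to 857632) had a summit 712 bp upstream, 573 bp from the start of lncRNA:CR45345, with signal 1160.0, IDR rank 1231 and replicate ranks 1394, 1072 and 1448. At the locus of mir-4970 and mir-9378 (2L, 10741885 to 10751938), mir-9378, in an intron of CG17124, had a summit 168 bp upstream with signal 940.6 and IDR rank 1666. The replicates disagreed on its rank (4011, 1972 and 798). mir-4970 had no IDR summit within 2000 bp. The tenth, mir-4911 (3R, 15836287 to 15836354), has mirtron ends in ND-23, which encodes a subunit of respiratory complex I. Its peak lay 904 bp upstream and 141 bp from the ND-23 start, with signal 932.9 and IDR rank 1683. Overlapping peaks had ranks 1719 and 2094 in replicates 1 and 3, and none overlapped it in replicate 2, where the strongest summit within 2000 bp was another, of rank 11595.

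**Figure D2:**
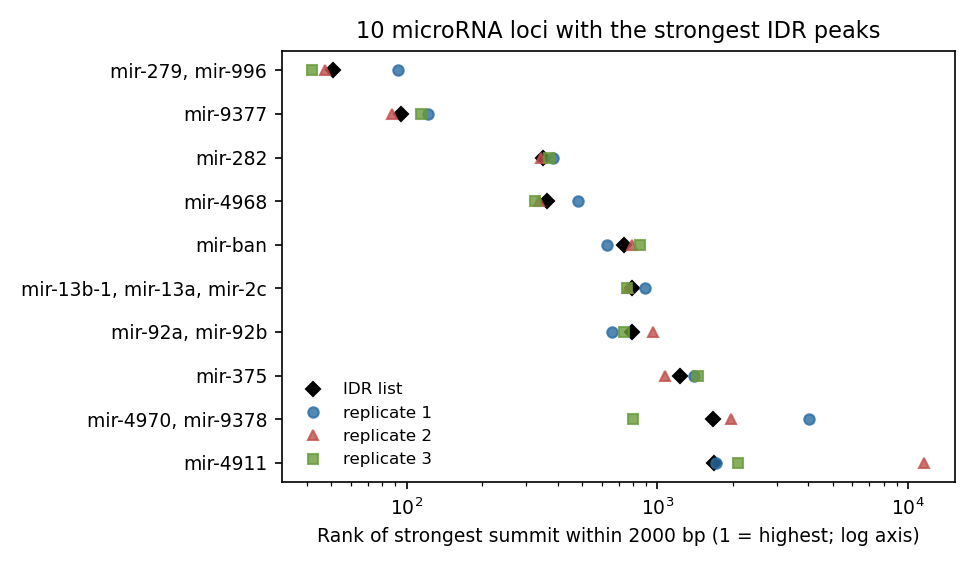
Rank (log axis, 1 is the highest signal) of the strongest summit within 2000 bp of each of the 10 microRNA loci with the strongest IDR peaks, in the IDR list (diamonds) and in replicates 1 to 3. The symbols of a locus lie close together down to mir-375 and spread for mir-4970 with mir-9378 (798 to 4011) and mir-4911 (1719 to 11595).

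The other 48 loci with an IDR summit had peaks of lower signal, from 814.5 (mir-2496) to 207.4 (mir-4956, in an exon of the sex determination gene Sxl). Among them were mir-8 (signal 649.1, rank 2751; replicate ranks 2256, 3090 and 3187), the locus of mir-277, mir-34 and mir-317 (579.1, rank 3207; 3567, 2921 and 3939) and mir-14 (542.1, rank 3496; 3784, 2894 and 3268). The Hox cluster pair mir-iab-4 and mir-iab-8 had signal 265.0 and rank 7817 (5988, 8915 and 8768). For mir-9370 the replicates lay furthest apart, with ranks 29347, 5665 and 10090 in replicates 1, 2 and 3.

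The 89 IDR peaks near microRNA genes were of ordinary strength. Their signal ran from 206.6 to 5175 with a median of 370.0, against 410.9 over all IDR peaks, and 40 of the 89 lay above that overall median. Of the 89, 8 were in the strongest 10% of the IDR list. By overlap, 81 (91.0%) had a peak in all 3 replicate lists, against 92.7% of all IDR peaks, and 56 (62.9%) overlapped one of the 9789 strongest of every replicate, against 70.7%. More than 1 summit stood at 23 of the 58 loci. Each summit is counted as a peak here, also where summits share an interval, as those upstream of mir-2c do.

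Their summits were spread over the window. The median distance to the nearest hairpin was 905 bp, and 53 summits (59.6%, exact interval 48.6 to 69.8) lay upstream, 33 downstream and 3 inside a hairpin (mir-4974, mir-11182 and mir-4962). Of the 89, 44 (49.4%, 38.7 to 60.2) were within 500 bp of a start of another gene, against 46.0% of all IDR peaks. Another 22 (24.7%) were over 2000 bp from any such start, against 34.1% of all IDR peaks. These shares describe the places and were not tested. Of 73 peaks near a microRNA gene with a host on its own strand, 28 (38.4%) were within 500 bp of a start of that host.

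**Figure D3:**
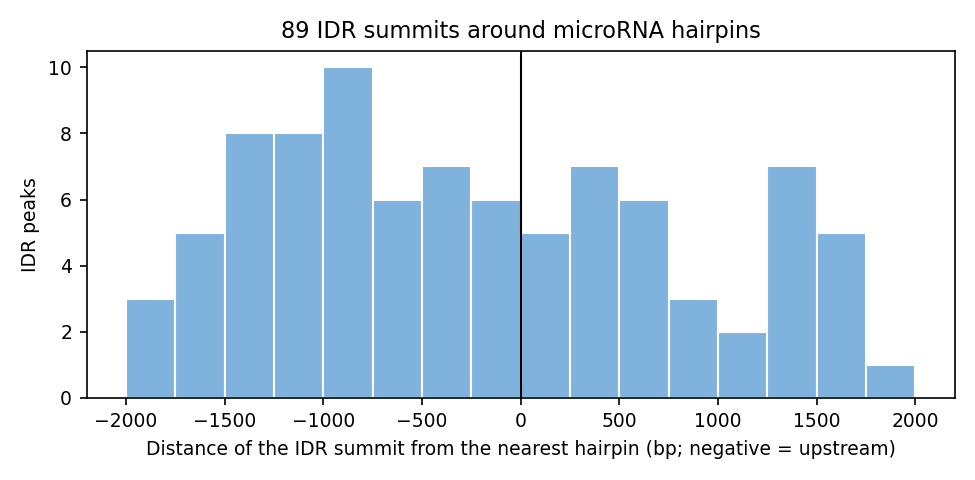
Number of IDR peaks by the distance of their summit from the nearest microRNA hairpin (bp, in bins of 250 bp; negative is upstream on the strand of the microRNA, and the line at 0 marks the hairpin). The 89 summits are spread over the whole window, with 53 upstream, 33 downstream and 3 inside a hairpin.

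Counted at transcript starts in place of hairpins, summits stood at a larger share of noncoding hosts than of other lncRNA genes. The microRNA genes classed by a noncoding host on the same strand lie in 32 such hosts, 20 of which RefSeq names as primary microRNA transcripts. Noncoding genes that contain a microRNA gene classed by another host are not among the 32. Of the 32, 12 had an IDR summit within 500 bp of a start (37.5%, exact interval 21.1 to 56.3), against 12.4% of the 1914 other genes named lncRNA. Of the 20 named primary transcripts, 8 (40%) had one. In the pooled list it was 22 of 32 (68.8%, 49.99 to 83.9), with 17 of the 20 named ones, against 30.6% of other lncRNA genes. With these 5 genes added (asRNA:CR46194, asRNA:CR46354, lncRNA:CR45917, lncRNA:CR45918 and lncRNA:iab8), it was 13 of 37 (35.1%, 20.2 to 52.5) in the IDR list and 24 of 37 (64.9%) in the pooled list. The one added with an IDR summit at its start was asRNA:CR46194, of mir-281-1 and mir-281-2 (394 bp). The 3 of them named lncRNA are part of the 1914. This comparison was added after the data were seen.

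The replicates gave close values. In replicates 1, 2 and 3, 23, 22 and 22 of the 32 hosts had a summit at a start, a mean of 69.8% ± 1.80 (SD, n = 3), against 31.0%, 30.4% and 29.5% of other lncRNA genes. Noncoding hosts are longer than other lncRNA genes (median 7039 bp against 655 bp), with a median of 1 start in both. Among genes of at least 5000 bp, 9 of 20 noncoding hosts (45%, 23.1 to 68.5) had an IDR summit at a start, against 17.9% of 67 other lncRNA genes. In the pooled list 14 of the 20 (70%, 45.7 to 88.1) did, against 40.3%. The interval of the pooled share and that of the IDR share lie above the shares of other long lncRNA genes. Those shares rest on only 12 (IDR) and 27 (pooled) of 67 genes and have a counting error of their own, which is not given. The difference was not tested. Whether the groups differ in expression in the embryo was not measured.

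The 12 hosts with an IDR summit at a start include several with known roles. The summit was 6 bp from a start of the host of mir-184 (rank 5630), a regulator of egg and early embryo development. It was 7 bp from the start for mir-bft (mir-263a; rank 6527), which protects sensory bristle cells, and 7 bp for mir-276a (rank 6856). For bantam it was 8 bp (rank 5336) and for mir-9a, which limits sensory organ precursors, 40 bp (rank 8754). Hosts of mir-14 (60 bp, rank 3496), of mir-8 (nearest 79 bp, strongest 176 bp, rank 2751) and of mir-279 with mir-996 (125 bp) followed. Those of mir-4951 (Hsromega, the heat shock RNA; 205 bp, rank 757), mir-275 (302 bp, rank 6603), mir-10 (331 bp, rank 6177) and mir-282 (367 bp) complete the 12.

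At 5 of these 12 hosts no microRNA had an IDR summit within 2000 bp of its hairpin: mir-bft, mir-184, mir-9a, mir-10 and mir-4951. The most upstream start is 17591 bp from the hairpin for mir-bft, 15307 bp for mir-184, 20589 bp for mir-4951, 6797 bp for mir-10 and 2495 bp for mir-9a. A window around the hairpin leaves these summits out. Of the other 20 hosts, 6 had an IDR summit near the hairpin and none at a start, and 14 had neither.

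Ranks at these starts were steady for some hosts and not for others. The peak at the start for mir-184 had ranks 5947, 5549 and 6127 in replicates 1, 2 and 3, and that for mir-10 had 7560, 6740 and 5541. For mir-276a the ranks were 19914, 5877 and 5148, and for mir-9a 27158, 8374 and 8958, so that replicate 1 was far lower for both. Among hosts with no IDR summit at a start, the pooled list had a summit 34 bp from a start for mir-124 (rank 13194), a microRNA of neurons, 11 bp for mir-1, of muscle, and 36 bp for mir-277 and mir-34 (rank 18045). It had none within 500 bp for the let-7 complex (nearest 650 bp).

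**Figure D4:**
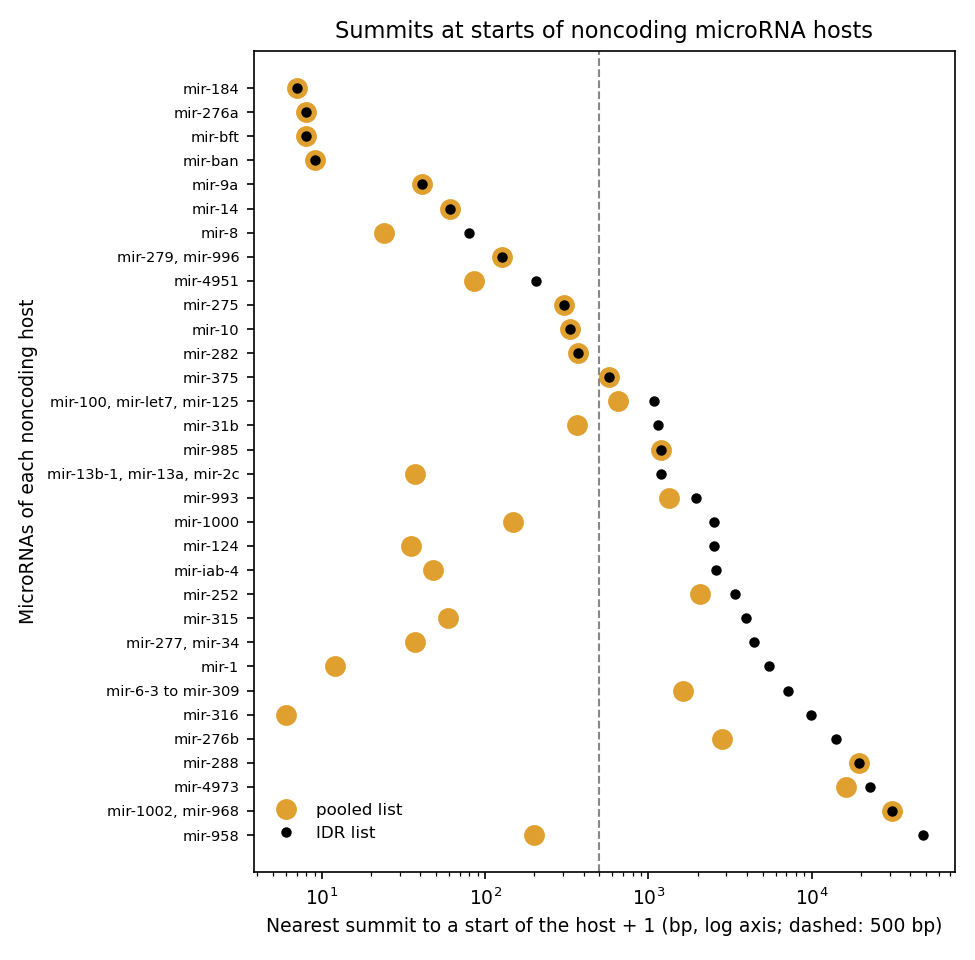
Distance (bp + 1, log axis) from a start of each of the 32 noncoding hosts to the nearest summit in the pooled list (large points) and the IDR list (small points), labelled by the microRNAs of the host; the dashed line is at 500 bp. Small points left of the line mark 12 hosts and large points 22 hosts.

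Coding hosts of intronic microRNAs were compared in the same way. Of 89 such hosts, 51 had an IDR summit within 500 bp of a start (57.3%, exact interval 46.4 to 67.7), against 35.6% of 13968 coding genes. The hosts are longer (median 14358 bp against 2164.5 bp) and have more starts (median 2 against 1). Among coding genes of at least 10000 bp, 37 of 55 hosts (67.3%, 53.3 to 79.3) had a summit at a start, against 48.4% of 1985 genes. Of the 51 hosts with a summit at a start, 19 (37.3%) had a summit, the same or another, within 2000 bp of the hairpin. Of the 38 others, 6 (15.8%) did. A single summit can meet both conditions where a start lies near the hairpin, so these shares are not independent of the grouping. An example is the summit 488 bp from mir-4968 and 69 bp from a start of its host Mob2.

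The microRNA genes were also grouped by known role. Of 18 microRNA genes of the early embryo and Hox clusters, 8 had an IDR summit (mir-310 to mir-313, mir-iab-4, mir-iab-8, mir-92a and mir-92b; 3 of 6 loci), and all 18 had one in the pooled list. The mir-309 to mir-6-3 cluster, whose microRNAs clear maternal messenger RNAs, had none in the IDR list and a pooled summit of rank 24148. Of 12 microRNA genes of muscle, nerve and sense organs, 3 had an IDR summit (mir-279, mir-996 and mir-263b), and 8 had a pooled one. Of 14 genes of the mir-2 seed family and cell death, 6 had an IDR summit (mir-13b-1, mir-13a, mir-2c, mir-13b-2, mir-14 and mir-308; 4 of 8 loci) and 14 a pooled one.

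The growth and metabolism group had a summit at 7 of 10 genes and 5 of 7 loci (mir-8, mir-275, mir-305, mir-276a, mir-276b, mir-277 and mir-34), and 9 of 10 in the pooled list. Of 19 genes of testis and rapidly evolving clusters, 6 had an IDR summit at 2 of 3 loci, and the same number had a pooled one. Of 14 mirtrons, only mir-1012 had an IDR summit, and 6 had a pooled one. For mir-100 and mir-125 of the let-7 complex, no list had a summit within 2000 bp. Beside these counts stand 28.5% of all microRNA genes and 41.6% of other gene starts in the IDR list, and 49.6% and 56.8% in the pooled list. Lists of this size give wide intervals, and they share loci.

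Most loci with an IDR summit had a summit in every replicate list, and many other loci did not. Of the 58 loci with an IDR summit, 55 had a summit within 2000 bp in all 3 replicate lists. The exceptions were mir-3641, mir-11182 and the mir-972 cluster, each with a summit in 2 of the lists. The IDR list was made from these replicates, so this is not independent of them. The count also takes any summit in the window, which need not be the same peak. At mir-980 the IDR peak overlapped a peak in replicate 3 only. Over all 198 loci, 83 had a summit in 3 replicates, 19 in 2, 38 in 1 and 58 in none. Of other gene starts, 63.6%, 58.2% and 58.9% had a summit in replicates 1, 2 and 3. The share of those starts with a summit in all 3 was not counted. Counted singly, 83 genes had no summit in any list, some of them in loci where another gene had one. Among the 58 loci with none are the let-7 complex (mir-100, mir-let7 and mir-125), the mir-959 to mir-964 cluster, mir-33, mir-137 and mir-190. A list shows only where peaks were called, not that the protein is absent elsewhere.

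Another 27 loci had a summit in the pooled list and in all 3 replicates but not in the IDR list. The strongest were mir-969 with mir-210 (pooled signal 204.6, rank 9852), mir-4910 (198.6, rank 10099), mir-1003 (192.0, rank 10346), mir-9384 (168.6, rank 11472) and mir-4912 (155.0, rank 12201). The first lies just below the last of the 9789 IDR peaks. At the edge of the window, the nearest IDR summit was 1725 bp from mir-1012 and 1761 bp from mir-4943, just inside, and 2056 bp from mir-1013 and 2173 bp from mir-1005, just outside.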

How the data were processed

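Deposited peak lists of 3 biological replicates, of the replicates pooled and of the IDR step were used. Per the labels they are on build dm6, and per the text deposited with them they were called against 1 control. Which aligner and peak caller were run, and at which IDR threshold, is not given in the sources used here. Each peak has a signal value that is the authors' own and was used to rank peaks within a list. The deposited q-value, as −log10 q, was the same for all IDR peaks (4.34) and reached a lowest value of 0.0776 in replicate 1, 0.458 in replicate 2, 0.456 in replicate 3 and 0.262 for the pooled peaks, so the weakest peaks there have little support. The labels number the replicates as biological.

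Genes came from Ensembl release 115. The annotation lists 481 mature arms as genes, which were left out of other genes, starts and hosts, and 2 microRNA genes on other sequences were not used. A summit counted as near a gene within 2000 bp, and near a start within 500 bp. Hosts contain the hairpin. Shares have exact Clopper-Pearson 95% intervals, and differences over replicates a two-sided exact sign-flip permutation test. Peaks of 2 lists matched when they overlapped by at least 1 bp. The members and lists were chosen with earlier results of these data known. The loci named in full are the 10 with the strongest IDR peaks, then the 5 strongest with pooled and replicate summits only and the 2 on either side of the window's edge, and the members of the lists by role with an IDR summit. Comparisons of noncoding and coding hosts and of long genes, the examples among the other loci, and the motif-bearing windows were chosen after their values were seen. Alternatives were other windows, list depths, backgrounds and host definitions and each replicate left out. The software was SciPy 1.17.1, pandas 2.3.3 and NumPy 2.4.6 under Python 3.11.15, with matplotlib 3.10.9 for plots, and the window counts were tested on simulated data.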

Additional observations from a re-analysis of the deposited data

How the results depend on the processing

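The share of microRNA loci with an IDR summit (29.3%) was 9.60%, 18.7% and 53.5% within 500, 1000 and 5000 bp (22, 42 and 135 genes, against 74). It was 15.2% (34 genes) in the IDR peaks of above-median signal and 50% (129 genes) in the pooled list. It was 17.7% (47 genes) for IDR peaks that overlap the strongest peaks of all 3 replicates, and 11.6% (26 genes) where 50% of both peaks had to overlap. The replicate mean of 54.7% was 27.6% with the strongest peaks, 42.1% with −log10 q of at least 1.3, and 27.4%, 41.6% and 72.1% within 500, 1000 and 5000 bp, and 52.3% to 56.8% with each replicate left out. The 55 loci found in the IDR list and all replicates were 35 with the strongest peaks, 18, 34 and 102 within 500, 1000 and 5000 bp, and 55 to 57 with each replicate left out. Against all bases, the difference between loci and other gene starts reversed to 14.8 points. It was −14.3 with the strongest peaks and −6.27 to −4.45 with each replicate left out. The difference between loci inside and outside hosts reversed to −12.5 points with coding hosts only, because loci in noncoding hosts then count as outside, and was 3.38 with the strongest peaks and 5.75 (without replicate 2) to 12.3 with each replicate left out. Summits near microRNA genes lay within 500 bp of a start for 38.1% in the pooled list. Noncoding hosts, an alternative chosen after seeing the data, had 68.8% in the pooled list and 15.6% in the IDR peaks of above-median signal, and their replicate mean of 69.8% was 37.5% with the strongest peaks 66.7% with every noncoding gene on the strand of a hairpin it contains (35.1% in the IDR list), and 68.8% to 70.3% with each replicate left out. Of the alternative values, 2 reversed, 28 moved past the limit set for them (the spread between replicates, the counting interval or, for counts, a ratio) and 33 did not. For the differences with a test, the last means only that the mean kept its sign, and p did not enter. Causes were not tested. No paired analysis was possible because there is 1 group and so no number shared between groups, and the differences above were taken within each replicate. Depth is unknown, and the pooled and replicate lists end at a fixed length.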
